A study of Mus musculus with 6 samples.

Results

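Receptor tyrosine kinases other than the FGF receptors were followed in MPCs, a cell line labelled as mouse podocytes, under high glucose (HG) with and without FGF1. The 10 genes *Csf1r*, *Pdgfra*, *Pdgfrb*, *Egfr*, *Erbb2*, *Erbb3*, *Met*, *Igf1r*, *Insr* and *Axl* were chosen with earlier results of these data known. Each was found in the table of 24469 loci by its gene symbol, taking the locus with the highest mean where a symbol had several. Of the 10, 9 had a mean FPKM, which is fragments scaled to transcript length and to the mapped fragments of the library, of at least 1 and were tested, and *Pdgfra* was not.

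The 6 RNA-Seq libraries came from MPCs. The line is conditionally immortalized and was grown with interferon gamma at 33 °C and differentiated without it for 10 days at 37 °C. All cells were deprived of serum for 12 h and then kept in 25 mM glucose for 12 h, and the sources name D-mannitol as an osmotic control, for which no library was analysed here. The groups of 2 libraries each were HG without pretreatment, HG after 1 h with wild-type FGF1 at 100 ng/mL (rFGF1 WT), and HG after 1 h with the mutant protein at 100 ng/mL (rFGF1 ΔHBS). The mutations of rFGF1 ΔHBS weaken the receptor dimerization that heparan sulfate assists, and whether the libraries of a group came from separate cultures is not given in the sources used here, so p-values measure the spread between libraries, which may be technical.

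Receptor tyrosine kinases are membrane proteins that act as dimers, most of them formed when a ligand binds, while insulin and IGF1 receptors are dimers beforehand. Active dimers phosphorylate themselves on tyrosine and recruit adaptors that start the Ras-ERK, PI3K-AKT and PLCγ pathways, which the FGF receptors of FGF1 also use. Within the kidney, PDGF receptors are known from mesangial cells and fibroblasts, EGF receptor and MET from tubular and glomerular epithelium, the CSF1 receptor from macrophages, and insulin and IGF1 receptors from podocytes among other cells.

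Summed FPKM per library, rounded to 3 digits, ran from 180000 to 185000. In loci with a single Ensembl transcript, 35.3% to 39.0% of low values per library lay within 2.0% of a step from a whole multiple of it, where 4.0% would lie if they were spread evenly. The step was the best found between 0.035 and 0.055 FPKM times kilobases, and smaller steps were also seen, with which the totals would be larger. If this step is 1 fragment, which was not tested, the libraries held between 22400000 and 23300000 fragments. *Erbb3*, a low receptor with a single transcript, would then rest on 538 and 512 fragments under HG, 213 and 274 after rFGF1 WT, and 261 and 226 after rFGF1 ΔHBS, with a counting error of 4.31% to 6.85%, which covers counting alone.

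The labelled cell type was checked against its markers. Of 12 podocyte markers 11 were matched, *Tcf21* not among them, and 6 had a mean FPKM of at least 1, led by *Actn4* (mean 96.6 FPKM), *Cd2ap*, *Kirrel* and *Podxl*, genes of the actin cytoskeleton and the cell surface. Among markers that define podocytes in tissue, *Wt1*, *Lmx1b* and *Ptpro* stayed below 0.1 FPKM in all 6 libraries, and *Nphs1*, which encodes nephrin, lay between 0.618 and 0.942 FPKM. These levels go against the label. The cells are called MPCs here, which is the study's abbreviation of mouse podocytes, without taking that cell type as shown. Podocyte markers summed to 185.0 and 180.0 FPKM under HG, 231.0 and 234.0 after rFGF1 WT, and 213.0 and 225.0 after rFGF1 ΔHBS, so the sums of both treated groups lay above HG. Single markers went both ways: *Synpo*, the gene of synaptopodin, had 9.58 and 10.2 FPKM under HG, 5.45 and 4.01 after rFGF1 WT, and 4.84 and 6.83 after rFGF1 ΔHBS. It lay below HG in all 4 treated libraries, as did *Podxl* (16.7 and 17.6 under HG, 14.8 to 15.8 treated), and neither passed (limma, adjusted p from 0.0787 to 0.305). Of the 6 tested podocyte markers, 1 rose after rFGF1 WT, which was *Kirrel* (nephrin-like protein 1; log2 fold change 1.24, limma, adjusted p = 0.0483), and 0 passed after rFGF1 ΔHBS, where 4 had an unadjusted p under 0.05, *Synpo* among them on the lower side. Of all tested loci 6.19% and 6.26% passed. Leaving out any library ended the call of *Kirrel* (limma, adjusted p from 0.0812 to 0.173). The median log2 fold change of the 6 tested podocyte markers was 0.29 and 0.23.

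Tubule markers had a lower sum in the treated libraries. Of 8 listed, 6 were matched and 3 had a mean of at least 1 FPKM, led by *Cdh16*, a kidney cadherin (mean 77.4 FPKM), while *Cdh1*, *Epcam* and *Aqp2* stayed below 0.1. Their sum was 158.0 FPKM in each HG library, 116.0 and 119.0 after rFGF1 WT, and 109.0 and 122.0 after rFGF1 ΔHBS. None of the 3 tested tubule markers passed an adjusted p of 0.05 in limma with either protein, although all 3 had an unadjusted p under 0.05 and values below HG with each, and their median log2 fold change was -0.34 and -0.36. Over all 10562 tested loci, 2616 after rFGF1 WT and 2632 after rFGF1 ΔHBS had an unadjusted p under 0.05, to be set beside such counts of every list. Whether these marker levels have a part in the receptor results was not tested. Of the 8 endothelial markers, 1 was tested, *Ehd3*, and in limma 0 passed with either protein (0 at an unadjusted p under 0.05), with log2 fold changes of -0.63 and -0.19. *Ehd3* had 3.25 and 3.48 FPKM under HG, 2.85 and 1.06 after rFGF1 WT, and 2.79 and 2.89 after rFGF1 ΔHBS. The second rFGF1 WT library stood apart. Below the filter, *Flt1* went the other way, with 0.252 and 0.362 FPKM under HG and 0.41 to 0.591 in the treated libraries. *Cdh5* and *Emcn*, neither above 0.0635 FPKM, also lay above HG with both proteins. *Eng* and *Tek* lay above HG after rFGF1 WT alone, and *Pecam1* and *Kdr* overlapped with HG with both proteins.

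FGF1 signalling itself was checked with 7 genes that respond to ERK. Of these, 6 were higher after rFGF1 WT and 5 after rFGF1 ΔHBS, and the libraries of each treated group lay above both HG libraries for all 7. Of all tested loci, 6.19% and 6.26% passed, and 58.2% and 57.3% did not overlap with HG in either direction. *Etv5*, an ETS transcription factor, had 0.486 and 0.578 FPKM under HG, 7.72 and 8.31 after rFGF1 WT, and 8.23 and 8.42 after rFGF1 ΔHBS. The others past the threshold with both proteins were *Etv4*, *Spry4*, *Phlda1* and *Ccnd1*, and *Spry2*, an inhibitor of receptor tyrosine kinase signalling, passed after rFGF1 WT (limma, adjusted p = 0.0492) but not after rFGF1 ΔHBS (adjusted p = 0.0648). The median log2 fold change of the 7 was 1.34 and 2.0, beside -0.04 over all tested loci with each protein, and both medians were the value of *Dusp6*, an ERK phosphatase. It had 2.96 and 3.67 FPKM under HG, 10.4 and 9.38 after rFGF1 WT, and 9.9 and 26.3 after rFGF1 ΔHBS, and did not pass (limma, adjusted p = 0.179 and 0.0882). Without the second rFGF1 ΔHBS library, which stood apart, the median after rFGF1 ΔHBS was 1.34, and without the first rFGF1 ΔHBS library it was 2.62 and *Dusp6* passed (limma, adjusted p = 0.0267). The median difference between the proteins was 0.03.

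The calls of *Etv5* and *Ccnd1* held whichever library was left out, and that of *Spry2* was lost whichever was left out (limma, adjusted p from 0.0918 to 0.164). *Etv4* was lost without the first or second HG library (0.058 and 0.0504 after rFGF1 WT, 0.0627 and 0.0552 after rFGF1 ΔHBS) and, for rFGF1 ΔHBS, also without its first or second library (0.0587 and 0.0575). *Spry4* was lost without the first HG library (0.0561 after rFGF1 WT, 0.0583 after rFGF1 ΔHBS), without the first rFGF1 WT library for rFGF1 WT (0.0504), and for rFGF1 ΔHBS without the second HG library (0.0502) or the first or second rFGF1 ΔHBS library (0.0544 and 0.0569). *Phlda1* was lost without any of the 4 treated libraries, with adjusted p from 0.0525 to 0.0708 for rFGF1 WT and from 0.0518 to 0.0764 for rFGF1 ΔHBS.

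Across all 10 receptors, the order of mean FPKM under HG was the merged *Axl* locus (66.1), *Pdgfrb* (32.2), *Erbb2* (25.6), *Met* (22.1), *Egfr* (18.1), *Igf1r* (15.2), *Csf1r* (10.1), *Insr* (4.64), *Erbb3* (3.83) and *Pdgfra* (0.437). No neighbours in this order overlapped between the HG libraries. With rFGF1 WT, *Met* and *Egfr* stood above *Erbb2*, at means of 31.9, 25.2 and 21.7 FPKM, and *Met* also stood above *Pdgfrb* at 26.9. With rFGF1 ΔHBS, *Met* (32.0) was again second to the *Axl* locus, and *Egfr* (27.5) overlapped with *Pdgfrb* (26.8), as did *Erbb2* (21) with *Igf1r* (18.9). *Insr* (4.56) stood above *Csf1r* (3.85) without overlap there, the other way round from HG and from rFGF1 WT.

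A gene passed the threshold at a Benjamini-Hochberg adjusted p under 0.05 over the 10562 tested loci, in a limma fit of log2(FPKM + 1) over all 6 libraries, and fold changes are on that scale, which understates changes of low genes. With rFGF1 WT, 4 of the 9 tested receptors passed against HG, 2 higher (*Egfr*, *Met*) and 2 lower (*Csf1r*, *Erbb3*), where 6.19% of all loci did, 344 higher and 310 lower. With rFGF1 ΔHBS, the same 4 receptors passed in the same directions, where 6.26% of all loci did, 356 higher and 305 lower. Leaving out any 1 library lowered the calls over all loci from 654 to between 134 and 195 after rFGF1 WT, and from 661 to between 118 and 198 after rFGF1 ΔHBS, so these shares are not fixed. The comparisons share the HG libraries, so a high or low HG value enters both. Only *Csf1r* also changed at least 2-fold on this scale, 1 of 9 with each protein, where 1.01% of all loci did after rFGF1 WT and 0.899% after rFGF1 ΔHBS. The libraries of rFGF1 WT and HG did not overlap for 9 of 9 receptors, and those of rFGF1 ΔHBS and HG for 8 of 9, against 58.2% and 57.3% of all loci. The median log2 fold change of the receptors was -0.23 after rFGF1 WT and -0.01 after rFGF1 ΔHBS, and that of all tested loci was -0.04 with each, while the median size of change was 0.45 and 0.29 against 0.181 and 0.179. As the receptors were chosen with earlier results of these data known, the values over all loci are a description and not a test of the list.

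**Figure D1:**
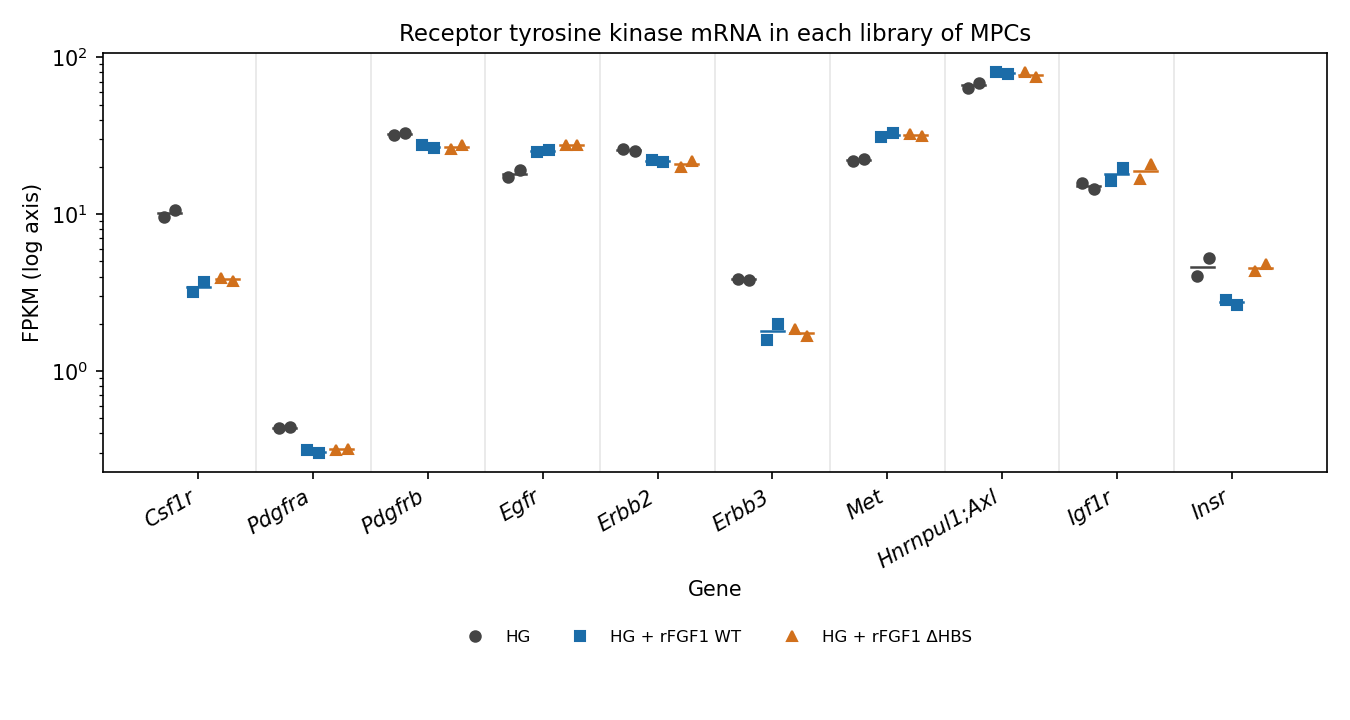
FPKM of the 10 receptors in each of the 6 libraries on a log axis, by gene, with symbols for HG, HG after rFGF1 WT and HG after rFGF1 ΔHBS and a bar at the mean of the 2 libraries of a group. *Csf1r* and *Erbb3* lie lower in all 4 treated libraries than in both HG libraries, *Egfr* and *Met* lie higher, and *Insr* is low in the rFGF1 WT libraries alone (2.85 and 2.65).

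*Csf1r* encodes the receptor of CSF1 and interleukin 34, a member of the PDGF receptor family that drives the survival of macrophages. It had 9.56 and 10.7 FPKM in the HG libraries, 3.21 and 3.68 after rFGF1 WT, and 3.93 and 3.76 after rFGF1 ΔHBS. All 4 treated libraries lay far below both HG libraries, at 0.341 and 0.381 of the HG mean. The log2 fold change was -1.32 (95% interval -1.57 to -1.08, limma, adjusted p = 0.0114) after rFGF1 WT and -1.19 (-1.44 to -0.95, adjusted p = 0.014) after rFGF1 ΔHBS. In bulk RNA, fewer cells that express a gene and less RNA per cell cannot be told apart. Without the second HG library, the limma adjusted p of *Csf1r* after rFGF1 WT was 0.051 (log2 fold change -1.25). With rFGF1 ΔHBS it was 0.0583 and 0.0602 without the first or second HG library, and 0.0634 and 0.0686 without the first or second rFGF1 ΔHBS library, with log2 fold changes from -1.27 to -1.12.

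Macrophage markers were looked at beside *Csf1r*. All 15 were matched, 12 had a mean FPKM below 0.1, and *Ptprc*, *Adgre1*, *Itgam*, *Mrc1* and *Aif1* did not exceed 0.0548 FPKM in any library. Of the 2 with a mean of at least 1, the more abundant was *Cd68*, listed only as a locus merged with the translation factor gene *Eif4a1* (mean 61.2 FPKM), which passed the test as higher after rFGF1 WT (log2 fold change 0.32, limma, adjusted p = 0.0496) and after rFGF1 ΔHBS (0.37, adjusted p = 0.0363), each call being lost whichever library was left out (0.101 to 0.162, and 0.0755 to 0.126). The median log2 fold change of the 2 was -0.07 and 0.02. Without that locus the markers summed to 7.51 and 13.3 FPKM under HG, 7.2 and 6.8 after rFGF1 WT, and 11.8 and 4.73 after rFGF1 ΔHBS, nearly all of it *Cd14*, and the groups overlapped for rFGF1 ΔHBS. *Spi1*, the gene of PU.1, a transcription factor that activates *Csf1r* in myeloid cells, stayed below the filter with 0.282 and 0.314 FPKM under HG, 0.116 and 0.115 after rFGF1 WT, and 0.0799 and 0.0981 after rFGF1 ΔHBS.

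*Csf1r* lies on chromosome 18 of GRCm38 from 61100598 to 61132149 on the plus strand, 15536 bases downstream of *Pdgfrb*, which runs in the same direction from 61045150 to 61085061. The 3′ end of *Csf1r* shares 873 bases with *Hmgxb3*, on the other strand, and the sources used here do not say whether strand was used in counting. *Hmgxb3* had 10.7 and 11.8 FPKM under HG, 12.9 and 11.9 after rFGF1 WT, and 12.2 and 12.8 after rFGF1 ΔHBS, with no adjusted p under 0.05 in limma (0.388 and 0.359). Its treated libraries lay above both HG libraries, the other way from *Csf1r*.

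The ligands of this receptor differed from each other. *Il34*, which encodes interleukin 34, had 1.94 and 2.08 FPKM under HG, 5.75 and 6.76 after rFGF1 WT, and 6.75 and 6.63 after rFGF1 ΔHBS. Its treated libraries were all above HG, opposite in direction to the receptor, and the log2 fold changes were 1.27 (limma, adjusted p = 0.0123) and 1.35 (adjusted p = 0.0122). The call after rFGF1 WT was lost without the first or second HG library (limma, adjusted p = 0.0639 and 0.0538), and that after rFGF1 ΔHBS without either of these (0.0631 and 0.0543) or the first or second rFGF1 ΔHBS library (0.0601 and 0.0577). *Csf1*, the more abundant ligand, had 77.8 and 63.1 FPKM under HG, 56.4 and 101.0 after rFGF1 WT, and 57.2 and 105.0 after rFGF1 ΔHBS. Its libraries differed within each treated group by more than between groups, and neither change passed (limma, adjusted p = 0.9 and 0.875).

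The PDGF receptors belong to the same family and bind PDGF dimers in mesangial cells, pericytes and fibroblasts. *Pdgfrb* had 31.8 and 32.7 FPKM under HG, 27.4 and 26.3 after rFGF1 WT, and 26.1 and 27.5 after rFGF1 ΔHBS. The treated libraries lay below HG without overlap, but the log2 fold changes of -0.26 (95% interval -0.40 to -0.11) with each protein did not pass (limma, adjusted p = 0.0795 and 0.0756). *Pdgfra*, on chromosome 5 from 75152292 to 75198215, was the lowest of the 10, at 0.434 and 0.439 FPKM under HG, 0.312 and 0.299 after rFGF1 WT, and 0.314 and 0.319 after rFGF1 ΔHBS. Its means with the proteins were 0.7 and 0.724 of that under HG, and in a limma fit without the filter neither change passed (adjusted p = 0.198 and 0.223). Within the summed FPKM of *Pdgfra*, *Pdgfrb* and *Csf1r*, the share of *Csf1r* was 22.9% and 24.3% under HG, 10.4% and 12.1% after rFGF1 WT, and 13.0% and 11.9% after rFGF1 ΔHBS.

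Markers of mesangial cells and fibroblasts, where PDGF receptors are also known, had a higher sum in the treated libraries, but not each of them lay higher. All 12 were matched and 4 had a mean of at least 1 FPKM, led by *Tagln*, a smooth muscle actin-binding protein (mean 22.1 FPKM). Their sum was 33.8 and 31.3 FPKM under HG, 51.6 and 49.5 after rFGF1 WT, and 51.6 and 42.2 after rFGF1 ΔHBS. Of the 4 tested, 0 passed with either protein in limma, and 4 and 3 had an unadjusted p under 0.05, with median log2 fold changes of 0.39 and 0.29. Of these, *Tagln*, *Acta2* and *Gata3* lay higher with both proteins, while the collagen gene *Col1a1* lay lower, with 2.04 and 2.21 FPKM under HG, 1.41 and 1.72 after rFGF1 WT, and 1.7 in each rFGF1 ΔHBS library. *Col1a2* and *Postn*, below the filter, also lay below HG in all 4 treated libraries, as *Pdgfrb* did. The other markers below the filter did not share this. *Col3a1* and *Lum* lay below HG without overlap after rFGF1 WT alone, and *Itga8* after rFGF1 ΔHBS alone. *Des* lay above HG after rFGF1 WT, and *Dcn* and *Thy1* overlapped with HG with both proteins. The part of these markers in the receptor results was not tested. Among the PDGF ligand genes, *Pdgfb* was the most abundant and varied widely, with 31.5 and 16.3 FPKM under HG, 28.7 and 59.9 after rFGF1 WT, and 28.8 and 33.2 after rFGF1 ΔHBS, and it did not pass.

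The ErbB receptors gave changes in opposite directions. *Egfr*, on chromosome 11 from 16752203 to 16918158, encodes the receptor of EGF, TGFα and HB-EGF. It had 17.3 and 19.0 FPKM under HG, 24.9 and 25.5 after rFGF1 WT, and 27.6 and 27.4 after rFGF1 ΔHBS. Both treated groups lay above HG, and the rFGF1 ΔHBS libraries lay above those after rFGF1 WT. The log2 fold change was 0.45 (95% interval 0.28 to 0.62, limma, adjusted p = 0.0343) after rFGF1 WT and 0.57 (0.41 to 0.74, adjusted p = 0.0219) after rFGF1 ΔHBS. Both calls were lost whichever library was left out (limma, adjusted p from 0.0622 to 0.128 and from 0.0555 to 0.0922).

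*Erbb3*, on chromosome 10 from 128567523 to 128589652, encodes a neuregulin receptor with an impaired kinase that signals as a partner of other ErbB receptors and recruits PI3K. Its FPKM was 3.88 and 3.79 under HG, 1.58 and 2.0 after rFGF1 WT, and 1.86 and 1.66 after rFGF1 ΔHBS. The treated libraries were all at or below 2.0 FPKM and did not overlap with HG. It fell by 0.80 (95% interval -1.08 to -0.51, limma, adjusted p = 0.0314) and by 0.81 (-1.10 to -0.52, adjusted p = 0.0308) on the log2 scale, at 0.467 and 0.459 of the mean FPKM under HG. Leaving out any library ended both calls (limma, adjusted p from 0.0639 to 0.126 and from 0.0543 to 0.123). *Erbb2*, on chromosome 11 from 98412470 to 98437716, encodes the ErbB member without a known ligand, which pairs with the others. It had 26.1 and 25.1 FPKM under HG, 22.1 and 21.4 after rFGF1 WT, and 20.0 and 21.9 after rFGF1 ΔHBS, below HG in all 4 treated libraries, and did not pass (log2 fold change -0.23 and -0.28, limma, adjusted p = 0.133 and 0.0899). *Mien1*, which shares 9 bases with *Erbb2* on the other strand, had 24 and 20.7 FPKM under HG, 19.7 and 6.49 after rFGF1 WT, and 16.6 and 7.82 after rFGF1 ΔHBS. It also lay below HG in all 4 treated libraries and did not pass (log2 fold change -0.90 with each, limma, adjusted p = 0.429 and 0.431).

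The sum of the 3 ErbB genes moved little while its make-up shifted. Together they had 47.3 and 47.9 FPKM under HG, 48.5 and 49.0 after rFGF1 WT, and 49.5 and 50.9 after rFGF1 ΔHBS. *Egfr* made up 36.6% and 39.7% of this sum under HG, 51.3% and 52.1% after rFGF1 WT, and 55.8% and 53.8% after rFGF1 ΔHBS. *Erbb2* was the more abundant of the pair in both HG libraries, with 55.2% and 52.4% of the sum, and *Egfr* was the more abundant in all 4 treated libraries. *Erbb3* went from 8.21% and 7.91% under HG to between 3.25% and 4.09% in the treated libraries. These shares are within a library and do not depend on scaling between libraries. *Erbb4*, the remaining member, did not exceed 0.00889 FPKM.

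Ligands of ErbB receptors were led by *Hbegf*, which had 9.18 and 4.95 FPKM under HG, 13.9 and 15.9 after rFGF1 WT, and 16.3 and 16.0 after rFGF1 ΔHBS. The treated libraries lay above HG, but the HG libraries stood apart from each other and the log2 fold changes of 1.03 and 1.14 did not pass (limma, adjusted p = 0.116 and 0.0947). *Nrg1*, the gene of neuregulin 1, a ligand of ErbB3, had 3.77 and 3.04 FPKM under HG, 6.49 and 6.57 after rFGF1 WT, and 5.09 and 5.28 after rFGF1 ΔHBS. It rose by 0.78 after rFGF1 WT (limma, adjusted p = 0.0287), and its change of 0.49 after rFGF1 ΔHBS did not pass (adjusted p = 0.0694). The difference between the proteins was -0.28 (95% interval -0.55 to -0.02, limma, adjusted p = 0.905), so the groups were not shown to differ. Leaving out any library ended the call after rFGF1 WT (limma, adjusted p from 0.0575 to 0.121). *Areg* and *Ereg* were listed at or near 0.

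*Met*, on chromosome 6 from 17463800 to 17573980, encodes the receptor of hepatocyte growth factor, known for epithelial repair. It had 21.8 and 22.4 FPKM under HG, 31.0 and 32.7 after rFGF1 WT, and 32.4 and 31.5 after rFGF1 ΔHBS. The treated libraries lay above HG and the treated groups overlapped. The log2 fold change was 0.51 with each protein (95% interval 0.37 to 0.66 for both, limma, adjusted p = 0.0208 and 0.021), and these calls too were lost whichever library was left out (0.0561 to 0.0931 and 0.0536 to 0.092). The ligand gene *Hgf* did not exceed 0.0186 FPKM, and *Mst1r*, the related receptor of macrophage-stimulating protein, had 0.145 and 0.189 FPKM under HG and at most 0.0563 in the treated libraries, below the filter.

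For *Egfr*, *Erbb3* and *Met*, the limma fit of only the 4 libraries compared gave adjusted p from 0.0531 to 0.0837, and without the filter on low FPKM *Egfr* after rFGF1 WT (0.0573) and *Erbb3* with both proteins (0.0818 and 0.0758) were also above 0.05, while the directions held in each of these fits.

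*Axl* encodes the receptor of GAS6 and is known for the uptake of dying cells and for cell survival. It was listed only as a locus merged with *Hnrnpul1*, a gene for an RNA-binding protein that lies 2515 bases away on the same strand of chromosome 7, where *Axl* runs from 25757273 to 25788705, and the fragments of each gene cannot be told apart. This locus had 64.1 and 68.2 FPKM under HG, 80.5 and 78.1 after rFGF1 WT, and 80.3 and 74.6 after rFGF1 ΔHBS. It lay above HG in all treated libraries and did not pass (log2 fold change 0.26 and 0.22, limma, adjusted p = 0.0982 and 0.121). Of its relatives, *Tyro3* had 6.09 and 6.45 FPKM under HG and 5.21 to 5.98 in the treated libraries, below HG without overlap, and did not pass (limma, adjusted p = 0.367 and 0.297). *Mertk* lay between 0.386 and 0.581 FPKM with overlapping groups. The ligand *Pros1* had 16.2 and 15.3 FPKM under HG, 15.3 and 15.0 after rFGF1 WT, and 17.2 and 10.4 after rFGF1 ΔHBS, and *Gas6* did not exceed 0.283.

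*Insr* and *Igf1r* encode the receptors of insulin and IGF1, which can form hybrids and signal through IRS proteins to PI3K. *Igf1r*, on chromosome 7 from 67952827 to 68233668, had 15.9 and 14.4 FPKM under HG, 16.3 and 19.6 after rFGF1 WT, and 16.8 and 20.9 after rFGF1 ΔHBS. The treated libraries lay above HG, but the lower of each treated pair was close to HG and the changes of 0.22 and 0.29 did not pass (limma, adjusted p = 0.422 and 0.319). With 1 library left out, they ran from 0.09 to 0.35 after rFGF1 WT and from 0.14 to 0.44 after rFGF1 ΔHBS.

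*Insr*, on chromosome 8 from 3122061 to 3279617, had 4.02 and 5.25 FPKM under HG, 2.85 and 2.65 after rFGF1 WT, and 4.32 and 4.8 after rFGF1 ΔHBS. Only the rFGF1 WT libraries stood apart, below those of both other groups, which overlapped. The log2 fold change after rFGF1 WT was -0.58 (95% interval -0.93 to -0.23, limma, adjusted p = 0.0891) and did not pass, and that after rFGF1 ΔHBS was -0.01 (-0.37 to 0.34, adjusted p = 0.967), positive at 0.02 under median-ratio scaling and under quantile normalization. *Insr* made up 20.2% and 26.7% of the summed FPKM of both receptors under HG, 14.9% and 11.9% after rFGF1 WT, and 20.4% and 18.7% after rFGF1 ΔHBS. *Igfbp7*, the most abundant gene of the IGF-binding and shedding list, had 69.0 and 69.6 FPKM under HG, 99.1 and 89.4 after rFGF1 WT, and 85.1 and 88.4 after rFGF1 ΔHBS, and rose after rFGF1 WT (log2 fold change 0.44, limma, adjusted p = 0.041) but did not pass after rFGF1 ΔHBS (0.32, adjusted p = 0.0712). Its call was lost whichever library was left out (limma, adjusted p from 0.065 to 0.148).

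rFGF1 ΔHBS and rFGF1 WT were compared at the same dose and time. None of the 9 tested receptors had an adjusted p under 0.05 in limma, where 0.549% of all loci passed (58, and 107 or 105 without the first or second rFGF1 WT library) and 0.35% also at 2-fold. At an unadjusted p under 0.05 there was 1, *Insr*, where 514 of the 10562 loci were, and 3 of the 9, *Csf1r*, *Egfr* and *Insr*, had libraries that did not overlap between the proteins, all higher after rFGF1 ΔHBS, where 34.5% of all loci did not overlap. The difference in log2 fold change for *Insr* was 0.57 (95% interval 0.21 to 0.92, limma, adjusted p = 0.608). That of *Csf1r* was 0.13 (-0.12 to 0.37) and that of *Egfr* 0.12 (-0.05 to 0.29). With 1 library left out, the difference ran from 0.05 to 0.20 for *Csf1r* and from 0.10 to 0.14 for *Egfr*. The intervals of *Met* (-0.14 to 0.15), *Pdgfrb* (-0.15 to 0.14), the *Axl* locus (-0.20 to 0.13) and *Erbb2* (-0.23 to 0.12) also held 0. Those of *Erbb3* (-0.30 to 0.27) and *Igf1r* (-0.33 to 0.46) also held 0 and were wider. A missed threshold in this comparison does not show that the proteins act alike on these genes. The median difference of the receptors was 0.00, and that of all tested loci was 0.01.

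**Figure D2:**
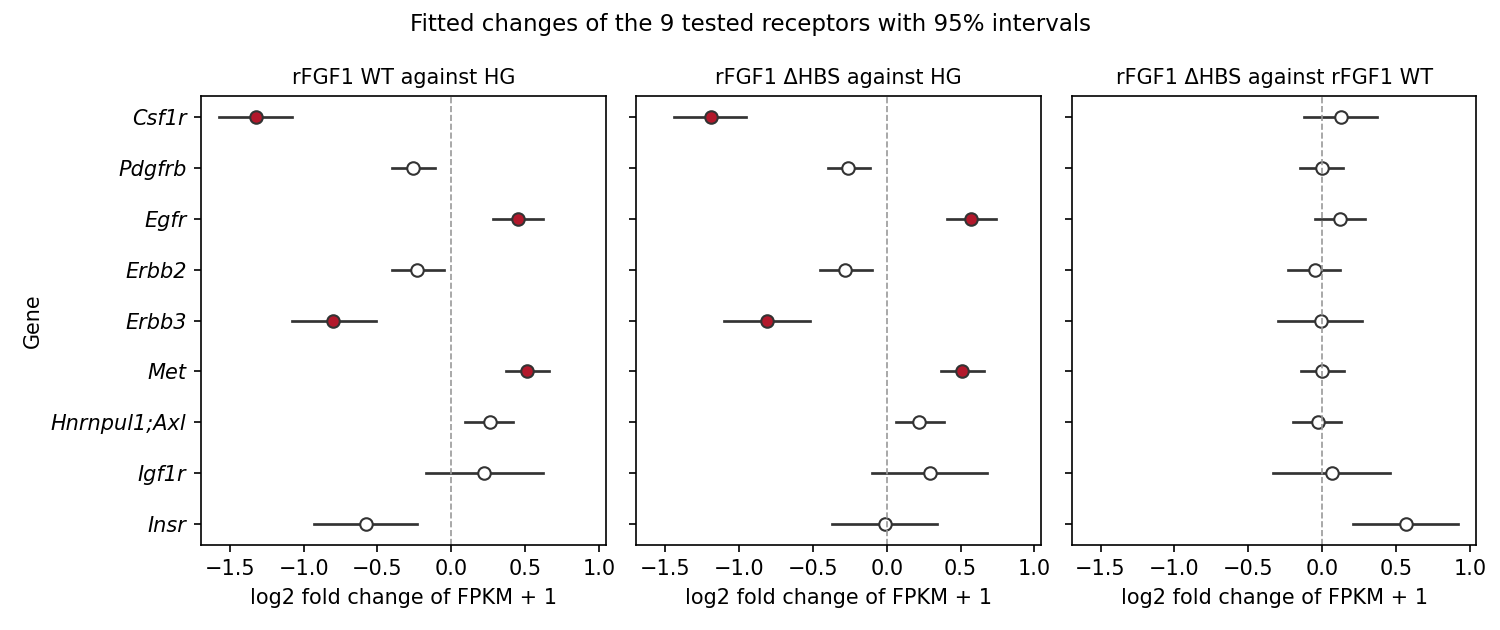
Log2 fold change of FPKM + 1 for the 9 tested receptors (points) with 95% intervals from limma (bars), against HG for each protein and between the proteins, with filled points at an adjusted p under 0.05. *Csf1r* and *Erbb3* lie below 0 and *Egfr* and *Met* above 0 with both proteins, and no point is filled between the proteins, where *Insr* lies farthest from 0 at 0.57.

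Other receptor tyrosine kinases were mostly below the filter in these cells. Of 30 matched, 7 were tested, and 1 passed after rFGF1 WT and 2 after rFGF1 ΔHBS, where 6.19% and 6.26% of all loci did. *Ddr1*, a collagen receptor of epithelial cells, had 36.8 and 33.0 FPKM under HG, 16.5 and 16.4 after rFGF1 WT, and 15.8 and 19.6 after rFGF1 ΔHBS. It stood above *Pdgfrb* in both HG libraries, lay lower in all 4 treated libraries, and fell by 1.04 (limma, adjusted p = 0.0235) and by 0.95 (adjusted p = 0.028) on the log2 scale. *Styk1*, a membrane kinase with no known ligand, had 1.04 and 1.18 FPKM under HG, 2.53 and 2.06 after rFGF1 WT, and 3.03 and 2.48 after rFGF1 ΔHBS, and rose after rFGF1 ΔHBS (log2 fold change 0.83, limma, adjusted p = 0.0402) but did not pass after rFGF1 WT (0.64, adjusted p = 0.0688). The calls of *Ddr1* after rFGF1 ΔHBS and *Styk1* were lost whichever library was left out (limma, adjusted p from 0.0518 to 0.115 and from 0.0747 to 0.15), and that of *Ddr1* after rFGF1 WT without the first or second HG library (0.103 and 0.0787) or the first or second rFGF1 WT library (0.107 and 0.0983). *Ryk* (43.0 to 52.7 FPKM) and *Ptk7* (31.2 to 34.0), both linked to Wnt signalling, and *Lmtk2* (10.7 to 17.7) did not pass. The median log2 fold change of the 7 was -0.14 after rFGF1 WT and 0.01 after rFGF1 ΔHBS, beside -0.04 over all tested loci with each.

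Of 24 ligand genes 22 were matched and 10 tested, and 2 rose after rFGF1 WT (*Il34*, *Nrg1*) and 1 after rFGF1 ΔHBS (*Il34*), with 0 lower. Of all tested loci 6.19% and 6.26% passed, to be set beside the counts of the ligand list and of the adaptor list. The median log2 fold change of the ligand genes was 0.18 and 0.19. The adaptors and effectors that receptors recruit were all tested, 22 of 22, with medians of -0.09 and -0.11, and 1 passed after rFGF1 WT and 3 after rFGF1 ΔHBS. *Gab1*, a docking protein that carries signals of MET and EGFR to PI3K and SHP2, had 10.2 and 10.7 FPKM under HG, 6.63 and 6.44 after rFGF1 WT, and 7.93 and 7.49 after rFGF1 ΔHBS. It was lower in all 4 treated libraries, with log2 fold changes of -0.60 (limma, adjusted p = 0.0189) and -0.40 (adjusted p = 0.0405). Its difference between the proteins was 0.21 (95% interval 0.05 to 0.37, limma, adjusted p = 0.86). Both calls were lost whichever library was left out (limma, adjusted p from 0.0525 to 0.0818 and from 0.0882 to 0.148).

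*Gab2*, a related docking protein, had 2.22 and 2.0 FPKM under HG, 3.17 and 3.12 after rFGF1 WT, and 3.47 and 3.48 after rFGF1 ΔHBS, and lay higher in the treated libraries, opposite to *Gab1*. Its log2 fold change of 0.52 passed after rFGF1 ΔHBS (limma, adjusted p = 0.0345), and that of 0.42 after rFGF1 WT did not (adjusted p = 0.0552). *Pik3r2*, a regulatory subunit of PI3K, had 39.1 and 37.9 FPKM under HG, 32.9 and 30.3 after rFGF1 WT, and 29.1 in each rFGF1 ΔHBS library, and fell after rFGF1 ΔHBS by 0.39 (limma, adjusted p = 0.0407). Both calls were lost whichever library was left out (limma, adjusted p from 0.0809 to 0.119 and from 0.0618 to 0.15). Other abundant adaptors did not pass, among them *Grb2* (27.5 to 34.4 FPKM), *Ptpn11* (29.5 to 34.6) and the locus of *Shc1* merged with *Pygo2* (23.2 to 33.7).

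Among 24 negative regulators 23 were matched and 19 tested, with medians of 0.07 and 0.02. Where 6.19% and 6.26% of all loci passed, 1 of these 19 passed with each protein. This was *Errfi1*, which encodes MIG6, a feedback inhibitor that binds the kinase domain of EGFR. It had 6.89 and 6.42 FPKM under HG, 10.3 and 12.6 after rFGF1 WT, and 13.6 and 14.0 after rFGF1 ΔHBS. The treated groups lay above HG, as did those of *Egfr*, with log2 fold changes of 0.70 (limma, adjusted p = 0.0423) and 0.95 (adjusted p = 0.0226). Leaving out any library ended the call after rFGF1 WT (limma, adjusted p from 0.0549 to 0.151), and that after rFGF1 ΔHBS was lost without any HG or rFGF1 ΔHBS library (up to 0.0984). The ubiquitin ligase gene *Nedd4* was the most abundant at 152.0 to 176.0 FPKM and did not pass (adjusted p = 0.0506 and 0.0765), nor did *Lrig1* (18.7 to 24.4), which also restrains EGFR. In the IGF-binding and shedding list 7 of 11 were tested, with medians of -0.13 and -0.03. Of these, 1 passed after rFGF1 WT (*Igfbp7*) and 0 after rFGF1 ΔHBS in limma (1 at an unadjusted p under 0.05), beside the same shares of all loci. Between the proteins, 0 genes of the 12 other lists passed in limma, and at an unadjusted p under 0.05 there were 1 ligand (*Nrg1*) and 1 adaptor (*Gab1*).

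**Figure D3:**
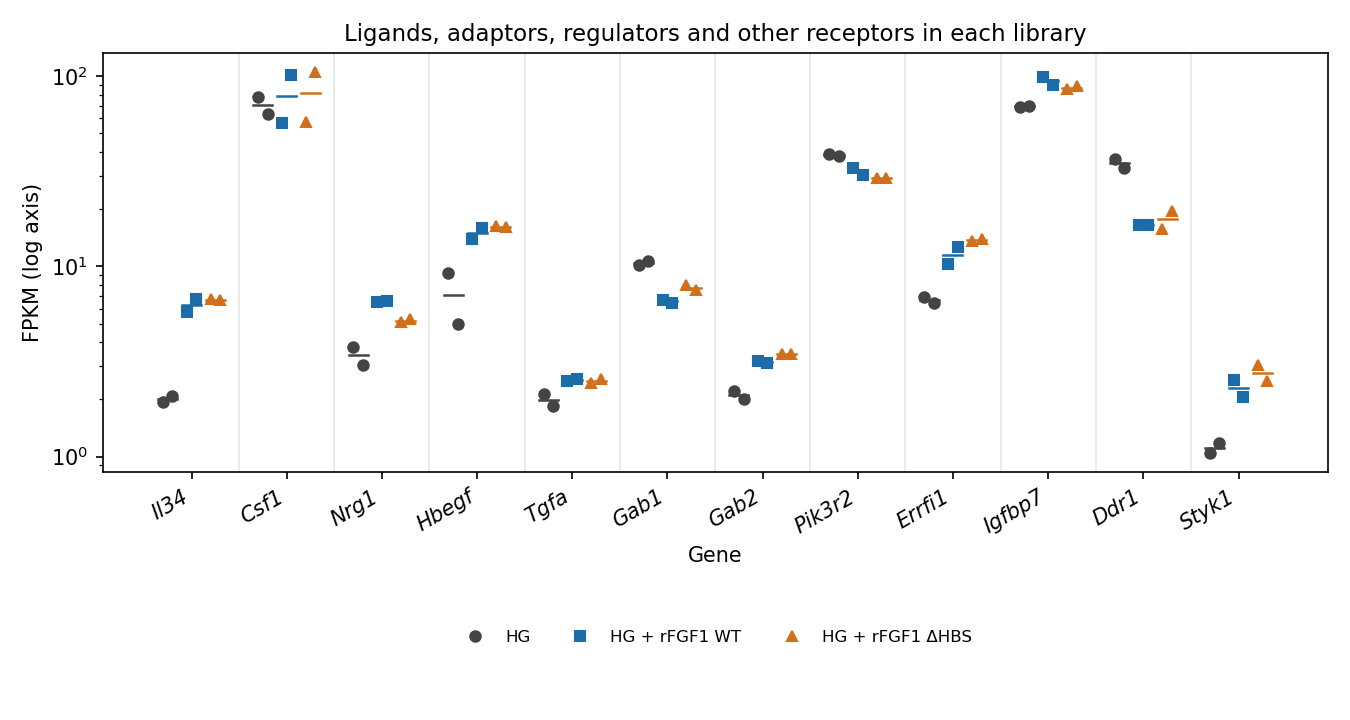
FPKM on a log axis in each of the 6 libraries for 5 ligand genes, 3 adaptors, 1 feedback inhibitor, 1 IGF-binding protein and 2 other receptors, by gene, with symbols for the 3 groups and a bar at the mean of the 2 libraries of a group. *Il34* lies higher in the treated libraries (5.75 to 6.76) than under HG (1.94 and 2.08), *Ddr1* and *Gab1* lie lower, and the *Csf1* groups overlap.

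Of the 12 housekeeping genes, all tested, 1 passed after rFGF1 WT, *Actb* (log2 fold change 0.86, limma, adjusted p = 0.045, and 0.062 to 0.164 whichever library was left out), and 0 after rFGF1 ΔHBS, with 4 at an unadjusted p under 0.05. Their median log2 fold change was 0.07 and 0.00. Of all loci, 6.19% passed after rFGF1 WT and 6.26% after rFGF1 ΔHBS. Over the 12 lists other than the receptors, 15 calls were made after rFGF1 WT, 6 of them among the genes that respond to ERK. After rFGF1 ΔHBS there were 13 calls, 5 of them among those genes. In limma fits of only the 4 libraries compared, 6 of these had an adjusted p under 0.05 with each protein, and 2 with each passed whichever library was left out, *Etv5* and *Ccnd1*.

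The loci whose pattern over the 6 libraries was most like that of each called receptor were found by Pearson's r of log2(FPKM + 1), as a description. For *Csf1r* these were *Kbtbd2* (r = 0.9986), *Efhd1* (0.9983) and *Enpep* (0.998), the last a glutamyl aminopeptidase of kidney epithelium. For *Erbb3* they were *Prkaa1* (r = 0.9991), a catalytic subunit of AMP-activated kinase, *Abca7* (0.9986) and *Sord* (0.9979), which encodes sorbitol dehydrogenase. For *Egfr* they were *Ces2g* (r = 0.9987), *Slc41a2* (0.9985) and *Myof* (0.9973), and for *Met* they were *Nrp1* (r = 0.9991), a coreceptor of semaphorins and VEGF, *Trmt2a* (0.9983) and the ligand gene *Il34* (0.9978). With 3 groups of 2 libraries such values are common, and between 348 and 479 loci had r above 0.95 with each of the 4 receptors. In the KEGG terms of the table, 7 of the 10 receptors are listed under the PI3K-Akt pathway and 3 under the MAPK pathway. *Erbb2*, *Erbb3* and *Axl* have no PI3K-Akt term there, and the share of all loci with these terms was not counted. These terms are annotation and not a result of the libraries.

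*Egfr* and *Met* rose together, and the stretches before their starts are shown for that reason. RefSeq promoters on GRCm38.p6 were matched for 6 of the 10 receptors, *Pdgfra*, *Egfr*, *Erbb2*, *Met*, *Igf1r* and *Axl*. The 250 bases before each start were searched on both strands for TGANTCA (AP-1), CCGGAA (ETS), GTAAACA (FOXO) and GGGCGG (Sp1), which do not overlap in the matches shown. These letters were present in 6.75%, 12.0%, 3.17% and 32.7% of 32851 mouse promoters of the same length. Capitals mark matches, and bases that GENCODE annotates as exons were left out, so that *Egfr* is shown from chr11:16751953-16752202 (plus strand, 250 bases) and *Met* from chr6:17463707-17463799 (plus strand, 93 bases).
Egfr: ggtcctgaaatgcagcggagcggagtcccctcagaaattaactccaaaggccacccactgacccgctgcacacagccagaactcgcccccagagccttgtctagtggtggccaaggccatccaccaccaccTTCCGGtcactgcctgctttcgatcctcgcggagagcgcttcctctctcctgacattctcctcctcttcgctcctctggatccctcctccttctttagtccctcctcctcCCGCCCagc
Met: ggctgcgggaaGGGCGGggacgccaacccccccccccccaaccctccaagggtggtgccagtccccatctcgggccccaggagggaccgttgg
In *Egfr* the capitals are a match of the ETS letters and a match of the Sp1 letters, both on the reverse strand, and GC content was 60.8%. In *Met* they are a match of the Sp1 letters, GC content over its 250 bases was 74.0%, and its AP-1 match and its other Sp1 matches lie in the annotated exon that is not shown. Over the 6 receptors, 1 promoter held the AP-1 letters, 1 the ETS letters, 1 the FOXO letters (*Axl*) and 4 the Sp1 letters. A match is a description of letters and was not tested as a binding site.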

How the data were processed

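MPC libraries were mapped to groups by their labels. FPKM per library was deposited by the authors, from paired-end sequencing of poly(A) RNA, and their submission notes name Bowtie 0.12.2, HISAT2 2.0, StringTie 1.3.0 and the build mm8, with no role given. The deposited table holds no coordinates, so positions were taken from GENCODE M21 (GRCm38), where 99.6% of its Ensembl transcripts were found. FPKM of merged or overlapping loci may be divided in ways the table does not show.

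From the FPKM, log2(FPKM + 1) of the 10562 loci with a mean of at least 1 entered a linear model in limma 3.58.1 under R 4.3.3 (lmFit, contrasts, eBayes with a trend; 3 residual degrees of freedom; two-sided, Benjamini-Hochberg over these loci). An exact permutation test of 2 against 2 libraries cannot give a p below 0.333 and was not used. Python 3.11.15 made the tables (pandas 2.3.3, numpy 2.4.6) and plots (matplotlib 3.10.9).

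Named genes were all 10 receptors, genes of the other lists with an adjusted p under 0.05, up to 4 examples per list by mean FPKM, and the 3 loci most like each called receptor. The other list genes given with values, and *Hmgxb3* and *Mien1*, which overlap receptor genes, fall outside this rule and were chosen after their values were seen. The receptors and the 12 other lists were chosen with earlier results of these data known. The alternatives tried were a pseudocount of 0.1, a mean of at least 5 or none as filter, median-ratio scaling, quantile normalization, robust empirical Bayes, a replicate block, only the 4 libraries compared, a 2-fold limit, summed loci of a symbol, and each library left out. The pseudocount of 0.1 together with no filter, and the alternatives for the other lists and their genes, were chosen after seeing the data.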

Additional observations from a re-analysis of the deposited data

How the results depend on the processing

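The direction of the 4 called receptors against HG held in every alternative run, and their number did not. Against the 4 receptors called with each protein, requiring a 2-fold change left 1 after rFGF1 WT and 1 after rFGF1 ΔHBS, the fit of only the 4 libraries compared left 1 and 1, and leaving out each library in turn left 0 to 1 with each. With rFGF1 WT, no filter on mean FPKM left 2, as did the pseudocount of 0.1 together with no filter, which was chosen after seeing the data. The fits of 4 or 5 libraries have fewer residual degrees of freedom, and the unfiltered fit tests more loci. Where a group is left with 1 library, that library is assumed to vary like the other groups. Libraries with the same replicate number did not deviate together (r = -0.0212, 0.098 and -0.0467), so the numbers do not pair them, and with the replicate block 0 receptors passed after rFGF1 WT and 0 after rFGF1 ΔHBS, where the calls over all 10562 loci went from 654 to 41 and from 661 to 39. No receptor passed between the proteins in any alternative.

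The signs that turned were of values near 0. *Insr* after rFGF1 ΔHBS against HG was 0.02 under median-ratio scaling, 0.02 under quantile normalization, and up to 0.14 with 1 library left out (0.14 without the second HG library and 0.05 without the first rFGF1 ΔHBS library, lowest -0.17). Between the proteins, leaving out a library turned *Erbb2* to 0.01 (lowest -0.11), *Erbb3* to 0.10 and 0.04 (lowest -0.12), *Igf1r* to -0.06 and -0.08 (highest 0.21) and the *Axl* locus to 0.02 (lowest -0.09). *Pdgfrb* and *Met*, at 0.00 between the proteins, took both signs with 1 library left out (-0.04 to 0.03 and -0.03 to 0.04) and were -0.01 under median-ratio scaling. In 61 fits of single receptors against HG, a call was lost while its direction held. Summing all loci of a symbol changed no value of the 9 tested receptors, and *Erbb3* and *Insr* have no value at a mean FPKM of at least 5.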

Other observations

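Several genes that carry receptor signals had libraries that stood apart within a group. *Irs1*, the main substrate of the insulin and IGF1 receptors, had 8.33 and 8.93 FPKM under HG, 7.74 and 15.9 after rFGF1 WT, and 8.22 and 0.119 after rFGF1 ΔHBS. *Irs2*, its relative, had 5.61 and 13.9 FPKM under HG, 7.04 and 6.94 after rFGF1 WT, and 6.8 and 17.2 after rFGF1 ΔHBS. *Frs2*, the docking protein of FGF receptors, had 2.75 FPKM in the first rFGF1 ΔHBS library and 9.57 to 11 in the other 5. These genes were singled out after their values were seen.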
